A study of Homo sapiens with 6 samples.

Results

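Superoxide dismutases and the enzymes that remove peroxide were examined in HN5 cells, a human head and neck squamous carcinoma line, after long selection in erlotinib, an inhibitor of the epidermal growth factor receptor kinase. The set held 10 genes: the dismutases SOD1 and SOD2, catalase (CAT), the glutathione peroxidases GPX1, GPX2, GPX3 and GPX4, and the peroxiredoxins PRDX1, PRDX3 and PRDX5. Every array probe annotated to 1 of these symbols was taken, and the probe that stands for a gene was chosen by the highest mean signal over the 6 arrays. Of the 10 genes, 9 had a probe, out of 20046 named genes on the array, and together they had 16 probes. No probe is listed under PRDX5 in the annotation used here, so it is not analysed. The genes themselves were chosen with earlier results of these arrays known, among them the large difference of SOD2 between resistant and parental cells. The 6-array means that chose the probes were 11.27, 9.48 and 7.59 for the 3 SOD2 probes, 8.95 and 8.49 for CAT, 10.93 and 6.81 for GPX1, 12.33 and 11.82 for GPX4, 13.01 and 12.97 for PRDX1, and 11.75 and 11.38 for PRDX3.

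Resistant cells were measured on 3 arrays and parental cells on 3 arrays. The resistant HN5 cells had been passaged in rising erlotinib for 3 months until 12.5 µM was reached and were then kept at 12.5 µM for 6 months, and the labels class them as erlotinib resistant. The parental HN5 cells are the untreated starting line and are classed as erlotinib sensitive. All resistant arrays describe 1 derived line, and its culture medium at the time of RNA extraction is not described. Effects of the drug, of months in culture and of resistance therefore cannot be told apart.

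Values are the authors' normalized signals on a log2 scale, on which 1 unit is a doubling. Signals over a limit of about 6.97 counted as above background, and a fold taken near that limit understates the change. All 9 squamous carcinoma markers with a probe were above background on every array of both groups. Each of the 9 had a lower mean in resistant cells, with log2 differences from -0.48 (SFN) to -1.34 (CDH3). Arrays correlated across probes at r = 0.9965 to 0.997 within a group and at r = 0.978 to 0.98 between groups. Signals of different probes are not compared as amounts of RNA.

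Superoxide, a by-product of respiration and of oxidase enzymes, is converted to hydrogen peroxide by the superoxide dismutases. Hydrogen peroxide is then removed by catalase in peroxisomes, by glutathione peroxidases at the expense of glutathione, and by peroxiredoxins at the expense of thioredoxin. SOD1 works in the cytosol and SOD2 in the mitochondrial matrix, and SOD2 is a well known target of NF-kB and of inflammatory cytokines. GPX2 is a glutathione peroxidase of epithelia and a known target of NRF2, the transcription factor of the antioxidant response, which binds antioxidant response elements.

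The stretches of 250 bases before the annotated start are shown for SOD2, which rose most, and for GPX2, which fell. Both are RefSeq sequences on GRCh38.p14, written 5′ to 3′ in the direction of the gene. The SOD2 stretch is chr6:159693242-159693491 on the minus strand, the furthest downstream of the 4 SOD2 starts in the table, and capitals mark GC boxes (GGGCGG on either strand). The GPX2 stretch is chr14:64942746-64942995 on the minus strand, and capitals mark 1 GC box and 1 antioxidant response element core.
SOD2: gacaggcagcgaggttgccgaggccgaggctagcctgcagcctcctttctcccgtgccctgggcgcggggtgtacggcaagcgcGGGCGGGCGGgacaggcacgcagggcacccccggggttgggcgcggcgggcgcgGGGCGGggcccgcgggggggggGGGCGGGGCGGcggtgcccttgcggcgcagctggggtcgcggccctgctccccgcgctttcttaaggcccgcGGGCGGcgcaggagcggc
GPX2: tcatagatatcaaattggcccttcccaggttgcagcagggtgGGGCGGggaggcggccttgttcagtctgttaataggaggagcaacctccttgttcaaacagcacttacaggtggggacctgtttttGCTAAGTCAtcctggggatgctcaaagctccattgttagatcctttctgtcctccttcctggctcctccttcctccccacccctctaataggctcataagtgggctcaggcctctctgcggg

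The SOD2 stretch was 80.8% G and C and held 6 matches to the GC box, some of them overlapping, against 54.0% and 1 match in the GPX2 stretch. The core matched in GPX2 reads GCTAAGTCA in the direction of the gene, begins 122 bases before the start, and is TGACNNNGC on the opposite strand. Promoter stretches were listed for 8 of the 10 genes, 14 stretches in all, some of which overlap. The GC box was found in all 14 of them, against 42.6% of the 35116 stretches of the same length in the table. The element core TGACNNNGC was found in 1 of the 14, that of GPX2, against 10.9% of all stretches. The other form searched, TGAGNNNGC, was found in 2 of the 14, 1 of SOD2 (at another of its starts) and 1 of PRDX3, against 14.8% of all. The NF-kB consensus and the AP-1 motif TGANTCA were each found in 0 of the 14, against 9.96% and 6.57% of all. All motifs were searched on both strands. AP-1 and the element cores can share letters, and a match or its absence describes only the letters in these stretches.

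The resistant cells had higher signals for both dismutases, for catalase and for 2 glutathione peroxidases, GPX1 and GPX4, and a lower signal for GPX2. SOD2 moved by far the most, 6.29-fold, while the other 5 genes that passed the test moved by 1.19-fold to 1.38-fold in either direction. The peroxiredoxins PRDX1 and PRDX3 did not pass, and GPX3 was at background in both groups. Of the 8 genes tested, 5 were higher and 1 was lower in resistant cells (limma, adjusted over all genes), where 26.0% of the 11426 genes tested were higher and 26.8% were lower, 52.8% in all. The median log2 difference was 0.28 over the 8 genes and -0.01 over all genes tested. The arrays of the groups did not overlap for 5 of the 8 genes, against 58.9% of all genes tested. Of these, 4 were higher and 1 was lower in resistant cells, against 28.7% and 30.2% of all genes tested. SOD2 is among the counts, although it was known to differ when the set was drawn up.

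**Figure D1:**
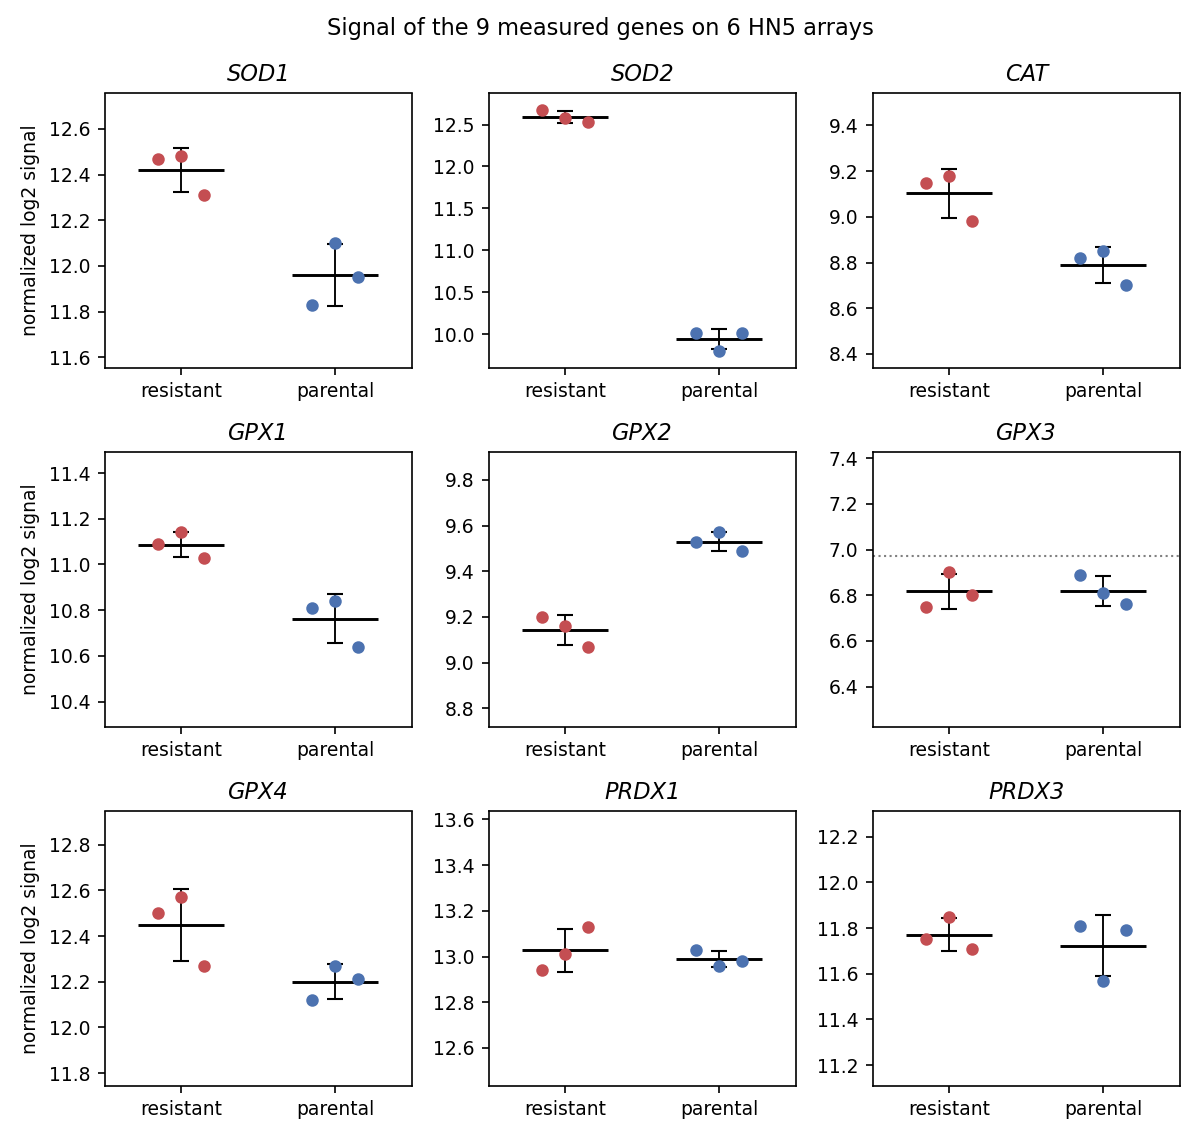
Normalized log2 signal of the 9 measured genes (y axis, a different range in each panel) on the 3 resistant and the 3 parental arrays (points), for the probe that stands for each gene. Horizontal lines are means, error bars are SDs (n = 3), and the dotted line in the GPX3 panel is the background limit. SOD2 averages 12.60 on the resistant and 9.94 on the parental arrays, GPX2 is the gene with the lower resistant values, and the GPX4, PRDX1 and PRDX3 points of the groups overlap.

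SOD2, the manganese superoxide dismutase of mitochondria, had log2 signals of 12.67, 12.58 and 12.53 on the resistant arrays, against 10.01, 9.80 and 10.01 on the parental arrays. Every resistant array was more than 2 units above every parental array. The mean was 12.60 ± 0.0686 in resistant cells and 9.94 ± 0.12 in parental cells (SD, n = 3 each), a difference of 2.65 (SE 0.0683), which ranks 11 among the rises of the 11426 genes tested. SOD2 was taken into the set because it was known to rise on these arrays, so no p-value is given for it. Over 14 other ways of handling the data the difference lay between 2.20 and 2.80.

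SOD2 has 3 probes, annotated to 3 different transcript records of the gene, and all were higher on every resistant array than on any parental array. The second probe had 10.90, 10.95 and 10.78 on the resistant arrays, against 8.0, 8.08 and 8.14 on the parental arrays, a difference of 2.80. The third had 8.03, 8.25 and 8.21 on the resistant arrays, against 7.05, 7.03 and 6.99 on the parental arrays, a difference of 1.15. The third probe sat just above the background limit on the parental arrays. With each array's background mode subtracted, and with signals floored at the limit, the fold of the third probe was 9.12, against 2.21 on the deposited scale. Likewise the second probe gave 11.1 against 6.98 and the first 6.96 against 6.29, so the size of the SOD2 rise depends on the scale more for its dim probes than for its bright one.

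**Figure D2:**
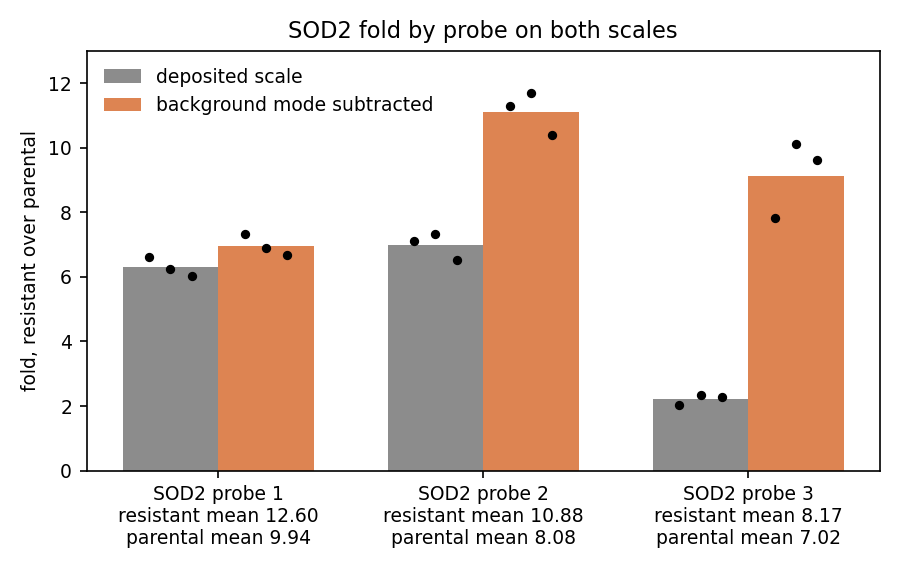
Fold of resistant over parental signal (y axis) for the 3 SOD2 probes, ordered by mean signal, on the deposited scale (grey bars) and after subtracting each array's background mode (orange bars). Bars are ratios of group means on the log2 scale and points are the 3 resistant arrays, each over the parental mean. The deposited folds are 6.29, 6.98 and 2.21, and the subtracted folds are 6.96, 11.1 and 9.12.

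SOD1, the copper and zinc superoxide dismutase of the cytosol, had 12.47, 12.48 and 12.31 on the resistant arrays, against 11.83, 12.10 and 11.95 on the parental arrays. The groups did not overlap. SOD1 averaged 12.42 ± 0.0929 in resistant cells and 11.96 ± 0.139 in parental cells (SD, n = 3 each). The difference was 0.46 (SE 0.0746, limma adjusted p = 1.63e-04), a rise of 1.38-fold on its only probe.

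Catalase, the peroxisomal enzyme that splits hydrogen peroxide into water and oxygen, rose 1.25-fold. CAT had 9.15, 9.18 and 8.98 on the resistant arrays, against 8.82, 8.85 and 8.70 on the parental arrays. No array of 1 group reached into the other, and the difference was 0.32 (SE 0.0673, limma adjusted p = 0.00139). The second CAT probe had 8.73, 8.63 and 8.70 on the resistant arrays, against 8.46, 8.17 and 8.23 on the parental arrays, and also rose, by 0.40 (limma adjusted p = 6.17e-04 over all probes).

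Among the glutathione peroxidases, the selenium enzymes that reduce peroxides with glutathione, GPX1 and GPX4 rose and GPX2 fell. GPX1, the widely expressed cytosolic form, had 11.09, 11.14 and 11.03 on the resistant arrays, against 10.81, 10.84 and 10.64 on the parental arrays. The groups did not overlap, and GPX1 rose 1.25-fold, a difference of 0.32 (SE 0.0645, limma adjusted p = 8.48e-04). The second GPX1 probe stayed at background on all arrays, with means of 6.84 in resistant and 6.77 in parental cells, and was not tested.

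GPX2, the form of gut and other epithelia, had 9.20, 9.16 and 9.07 on the resistant arrays, against 9.53, 9.57 and 9.49 on the parental arrays. All resistant arrays were below all parental arrays. GPX2 averaged 9.14 ± 0.0651 in resistant cells and 9.53 ± 0.0417 in parental cells (SD, n = 3 each), a difference of -0.39 (SE 0.0575, limma adjusted p = 7.83e-05). The signal was 1.31-fold lower in resistant cells, on the only GPX2 probe.

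GPX4, which reduces peroxides of membrane lipids and restrains ferroptosis, had 12.50, 12.57 and 12.27 on the resistant arrays, against 12.12, 12.27 and 12.21 on the parental arrays. The third resistant array lay within the spread of the parental arrays. The difference was 0.25 (SE 0.0762, limma adjusted p = 0.0149), a rise of 1.19-fold. That call was lost without resistant replicate 1 (adjusted p = 0.0506), resistant replicate 2 (0.0794) or parental replicate 1 (0.0597) and with the background mode subtracted (0.0822), within a range of 0.00155 to 0.0822 over the alternatives. On the second GPX4 probe the arrays did not overlap, at 11.92, 12.13 and 11.90 on the resistant arrays, against 11.87, 11.46 and 11.62 on the parental arrays. That probe rose by 0.33 (SE 0.0956, limma adjusted p = 0.0115 over all probes).

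GPX3, the secreted plasma form, was below the background limit on all 6 arrays, at 6.75, 6.9 and 6.80 on the resistant arrays, against 6.89, 6.81 and 6.76 on the parental arrays. It was therefore not tested, and no level can be given for it in either group.

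The peroxiredoxins reduce peroxides with a reactive cysteine. PRDX1, the abundant cytosolic form, had 12.94, 13.01 and 13.13 on the resistant arrays, against 13.03, 12.96 and 12.98 on the parental arrays. The groups overlapped and the difference of 0.04 did not pass (95% interval -0.09 to 0.17, limma adjusted p = 0.635). The second PRDX1 probe differed by -0.06 (95% interval -0.19 to 0.07).

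PRDX3, the mitochondrial form, had 11.75, 11.85 and 11.71 on the resistant arrays, against 11.81, 11.57 and 11.79 on the parental arrays. The ranges overlapped and the difference of 0.04 did not pass (95% interval -0.11 to 0.20, limma adjusted p = 0.626). The second PRDX3 probe differed by -0.02 (95% interval -0.17 to 0.14). The intervals of the 4 peroxiredoxin probes run from -0.19 to 0.20, so smaller changes in either direction were not resolved.

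**Figure D3:**
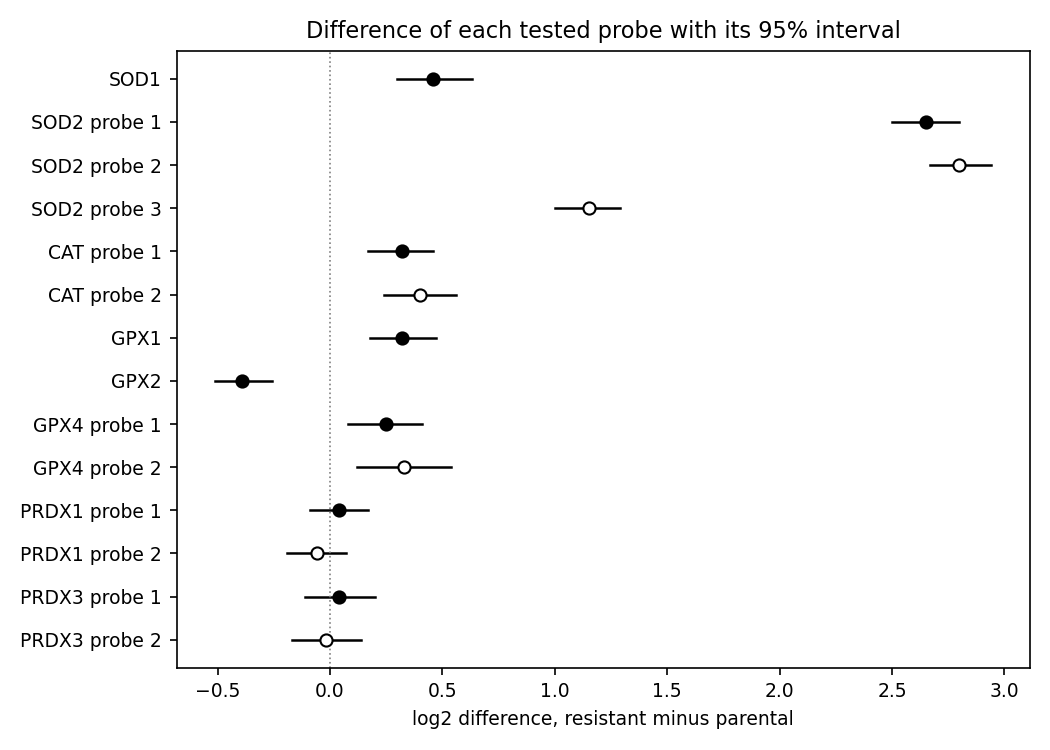
Log2 difference of resistant minus parental signal (x axis) for the 14 tested probes of the 8 tested genes (y axis), with 95% intervals from limma. Filled points are the probes that stand for a gene and open points the other probes. The SOD2 probes sit at 2.65, 2.80 and 1.15, GPX2 sits at -0.39, and the intervals of all 4 peroxiredoxin probes include 0.

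The 6 arrays form 2 groups, so genes of similar pattern are mainly those with a similar difference between them. Over the 6 log2 values, each centred on its own mean, the genes close to SOD2 included PTGS2, the inducible cyclooxygenase, with a root mean square difference of 0.0894, and RSAD2, an interferon-induced antiviral enzyme, with 0.106. PTGS2 and RSAD2 differed by 2.72 and 2.66. DCN, which encodes the matrix proteoglycan decorin, also came out among the 3 closest, but it was at background on all parental arrays. Only a bound can be given for it, at least 5.55-fold higher in resistant cells, and no distance. Closest to SOD1 was MSN, which encodes the actin linker moesin (0.0352), closest to CAT was COPE, a coat protein of Golgi vesicles (0.024), and closest to GPX1 was EIF1, a translation initiation factor (0.0185). Closest to GPX2 was INAVA, at 0.0239, which differed by -0.35, and closest to GPX4 was TMEM147, at 0.0351, which differed by 0.26. PSMB10, a subunit of the immunoproteasome, was closest to PRDX1 (0.0146) and NIF3L1 to PRDX3 (0.0242).

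Some markers of other cell types rose along with SOD2, while others did not pass or stayed at background on all arrays. Of 8 fibroblast markers, 5 were above background on all resistant arrays and 1 on all parental arrays, and their summed linear signal was 1915 to 1933 on the resistant arrays, against 991 to 1010 on the parental arrays. The sum would be 884 with all 8 at the background mode, so the parental sum is mostly background. The rise of the sum came mostly from DCN, named above, which averaged 9.44 on the resistant arrays. LUM averaged 8.22 there and was at background on all parental arrays, so it was at least 2.38-fold higher in resistant cells. COL1A1 averaged 8.31 in resistant and 7.76 in parental cells. COL1A2 and FAP averaged 7.14 and 7.01 on the resistant arrays, close to the limit. COL3A1 was above background on only 2 resistant arrays, and THY1 and PDGFRB were at background on all arrays. Of 8 leukocyte markers, 3 were above background on all arrays of each group, with sums of 3587 to 3927 on the resistant arrays, against 1971 to 2121 on the parental arrays, mostly from CD68, which averaged 11.45 in resistant and 10.07 in parental cells. The defining leukocyte marker PTPRC, and also CD3E, CD3D, ITGAM and LYZ, were at background on all arrays. Of 7 endothelial markers only PECAM1 was above background, on the resistant arrays, with sums of 821 to 827 on the resistant arrays, against 777 to 782 on the parental arrays, where 7 probes at the background mode would give 773. For the 8 leukocyte probes that figure is 884 and for the 9 squamous probes 994. The summed signal of the squamous markers was 18218 to 19205 on the resistant arrays, against 29368 to 32321 on the parental arrays. A sum adds the signals of unlike probes and serves only to set the groups side by side. The part of these markers in the results was not tested. In bulk RNA a change in the share of cells and a change of RNA per cell cannot be told apart.

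The other genes of this defence were taken from 9 lists with 108 entries, of which 72 were tested, 32 of them higher and 14 lower in resistant cells. Among all genes tested 26.0% were higher and 26.8% lower, 52.8% in all, and the count of each list below is to be read against those shares. The lists were drawn up with earlier results of these data known, and no list was tested as a set. Of the 72, 4 reached the filter through 1 group alone (SLC7A11, CYBA, ERO1B and ACOX2), 2 of them counted as higher and 1 as lower. For genes near the background limit the difference depends on the scale, and the value after subtraction of the background mode is given for named genes with signal in both groups where it is over 1.5 times the deposited one. In the extracellular branch SOD3 was at background on all arrays. CCS, the copper chaperone that loads SOD1, rose with it, by 0.26 (SE 0.0552, limma adjusted p = 0.00125), with 8.20, 8.15 and 8.23 on the resistant arrays, against 7.96, 7.95 and 7.88 on the parental arrays, and by 0.45 after subtraction. The manganese and zinc importer SLC39A14 differed by 0.10 and the mitochondrial carrier SLC25A39 by -0.13, and neither passed (limma adjusted p = 0.151 and 0.0901). SLC25A39 passed without resistant replicate 3 (adjusted p = 0.0399).

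Of 4 tested genes among the remaining peroxiredoxins and glutathione peroxidases 3 rose and 1 fell, with a median difference of 0.61, where 52.8% of all genes tested passed in either direction. GPX7 and GPX8 are peroxidases of the endoplasmic reticulum. GPX7 had 8.04, 8.12 and 8.02 on the resistant arrays, against 7.08, 7.17 and 7.10 on the parental arrays, a rise of 0.95 (SE 0.0568, limma adjusted p = 1.58e-08). Its parental values lie just over the background limit, and the difference is 2.49 after subtraction. GPX8 had 10.37, 10.43 and 10.39 on the resistant arrays, against 9.53, 9.62 and 9.59 on the parental arrays, a rise of 0.82 (SE 0.0548, limma adjusted p = 4.77e-08). PRDX4, the peroxiredoxin of the same compartment, rose by 0.40 (limma adjusted p = 4.88e-05). PRDX6, a cytosolic form that also acts on phospholipids, fell by 0.27 (limma adjusted p = 0.00194). GPX5 and GPX6 did not pass the filter on dim probes, and no probe is listed for PRDX2.

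In the thioredoxin system, which recharges peroxiredoxins, 2 of 8 tested genes rose and 2 fell (median -0.03). The reductases TXNRD1 and TXNRD2, of cytosol and mitochondria, rose by 0.75 and 0.30 (limma adjusted p = 5.14e-07 and 8.33e-04). TXNIP, an inhibitor of thioredoxin, fell by 0.54, and SESN3, a stress-induced sestrin, fell by 1.25 (limma adjusted p = 1.12e-04 and 9.76e-09). After subtraction the differences were 0.47 for TXNRD2, -1.55 for TXNIP and -2.23 for SESN3. Of 12 tested genes of glutathione synthesis and recycling 3 rose and 4 fell (median -0.07). The glutaredoxin GLRX rose by 1.47 (SE 0.0758, limma adjusted p = 3.48e-09). SLC3A2, the heavy chain of the cystine transporter and of other amino acid transporters, fell by 1.59, GGCT, an enzyme of glutathione breakdown, fell by 0.81, and the mitochondrial glutaredoxin GLRX5 fell by 0.26 (limma adjusted p = 3.87e-10, 2.17e-07 and 0.00279).

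Glutathione peroxidases 1 to 4 carry selenocysteine, and of 6 tested genes of selenoprotein synthesis 2 rose and 2 fell (median 0.03). SEPHS2, which makes the selenium donor, fell by 0.58 and its relative SEPHS1 by 0.50 (limma adjusted p = 1.18e-05 and 6.34e-06). PSTK, a kinase of the selenocysteine pathway, rose by 0.31, and SECISBP2, which reads the selenocysteine signal in messenger RNA, rose by 0.19 (limma adjusted p = 3.44e-04 and 0.0151). PSTK differed by 0.72 after subtraction. The SECISBP2 call was lost without resistant replicate 1 or 3 (adjusted p = 0.0550 and 0.0525).

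Of the enzymes that make superoxide or peroxide, 7 of 21 were tested, 3 of which rose and 2 fell (median 0.13), with CYBA among the falls and ERO1B among the rises although each passed the filter through 1 group alone. CYBA, the membrane partner of the NADPH oxidases, had 6.89, 6.74 and 6.86 on the resistant arrays, against 7.99, 7.90 and 8.01 on the parental arrays. All resistant values were at background, so CYBA was at least 1.99-fold lower in resistant cells, and since only the parental arrays brought it past the filter no p-value is given. The oxidases NOX1, CYBB, NOX3, NOX4, NOX5 and DUOX2 did not pass the filter on dim probes and were not tested. DUOX1 fell by 0.31, while the monoamine oxidase MAOA rose by 0.80 and ERO1A, the peroxide-forming oxidase of the endoplasmic reticulum, rose by 0.40 (limma adjusted p = 2.48e-04, 2.37e-07 and 4.66e-04). After subtraction DUOX1 differed by -0.92 and MAOA by 1.92. A second, dimmer DUOX1 probe (mean 7.07) differed by -0.16 on the deposited scale (limma adjusted p = 0.0463 over all probes).

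Of 13 tested genes of peroxisomes, the site of catalase, 3 rose and 1 fell (median 0.01), ACOX2 included among the rises. PEX5 and PEX7, the import receptors, rose by 0.20 and 0.24, and the membrane assembly factor PEX19 fell by 0.25 (limma adjusted p = 0.0134, 0.0103 and 0.00972). PEX7 differed by 0.46 after subtraction. The PEX5 call was lost without resistant replicate 1 or parental replicate 2 (adjusted p = 0.0560 and 0.0559) and with the background mode subtracted (0.0640), and the PEX7 call without resistant replicate 3 (0.0545). ACOX2, an acyl-CoA oxidase, was at background on all parental arrays and at least 1.05-fold higher in resistant cells. Its signal reached the filter through the resistant arrays alone, so no p-value is given.

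Of 10 tested genes on the list of NRF2 and its targets 8 rose and 1 fell (median 0.31), where 26.0% and 26.8% of all genes tested did. The 8 include NFE2L2 itself, MAFG and MAFF, and also ME1, for which the arrays of the groups overlapped (limma adjusted p = 0.0486). The list does not hold every target of NRF2, and GPX2, named above as one, is a member and differed by -0.39. Other known targets stand in other lists or among the members, and are named after their values were seen. TXNRD1 and GCLM rose by 0.75 and 0.18 (limma adjusted p = 5.14e-07 and 0.0173). GCLC, SRXN1, GSR, TXN and PRDX1 differed by -0.11, 0.08, 0.03, 0.02 and 0.04, and none of them passed. The ferritin light chain FTL rose by 0.56, the autophagy receptor SQSTM1 by 0.50, heme oxygenase HMOX1 by 0.41 and transaldolase TALDO1 by 0.34 (limma adjusted p = 3.94e-06, 4.20e-05, 1.67e-04 and 3.09e-04). HMOX1 differed by 1.25 after subtraction. NQO1, a quinone reductase and the gene of the list that fell, named after its value was seen, fell by 0.21 (limma adjusted p = 0.0165). The NQO1 call was lost with the mean of its probes (a difference of -0.08, adjusted p = 0.249), with the background mode subtracted (0.0818), and without resistant replicate 2 (0.0732) or parental replicate 1 (0.0794). NFE2L2, which encodes NRF2, rose by 0.17 (limma adjusted p = 0.0346), a call lost without resistant replicate 2 or 3 or parental replicate 1 or 2 (adjusted p = 0.0970, 0.123, 0.137 and 0.0576) and with the background mode subtracted (0.110). KEAP1, its inhibitor, showed a difference of 0.04 that did not pass (limma adjusted p = 0.708). Of 9 tested NF-kB subunits and feedback genes 7 rose and 1 fell (median 0.32), where 26.0% and 26.8% of all genes tested did. TNFAIP3 rose by 1.12, NFKBIA by 0.69 and RELB by 0.52 (limma adjusted p = 2.31e-07, 2.49e-07 and 1.47e-05), and RELB differed by 1.24 after subtraction. ICAM1 also rose (limma adjusted p = 2.60e-04), but it was above background on only 1 of 3 parental arrays. Its difference was 0.36 on the deposited scale and 1.58 after subtraction, so its size is not settled. The subunit gene REL, named after its value was seen, fell by 0.25 (limma adjusted p = 0.0197), a call lost without resistant replicate 1 (0.0881) or parental replicate 3 (0.0657) and with the background mode subtracted (0.0711). The REL difference was -0.15 without resistant replicate 1 and -0.53 after subtraction.

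**Figure D4:**
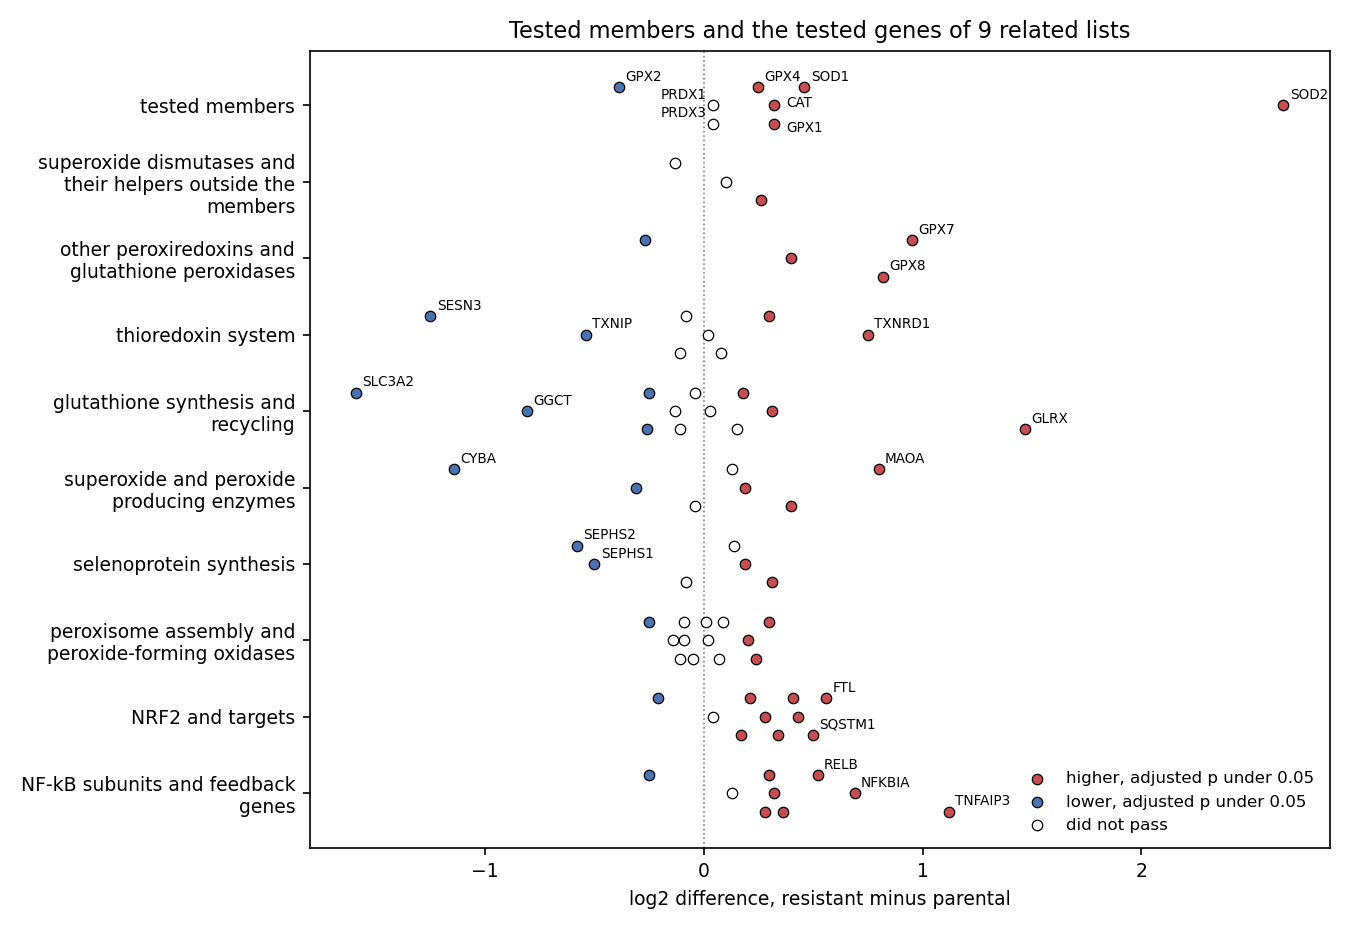
Log2 difference of resistant minus parental signal (x axis) for the 8 tested members and for the 72 tested genes of the 9 lists (y axis), 1 point per gene. Red points were higher and blue points lower in resistant cells at the adjusted p threshold, white points did not pass, and points are shifted vertically only to separate them. On this deposited scale SOD2 stands at 2.65 and the list genes run from -1.59 (SLC3A2) to 1.47 (GLRX). With the background mode subtracted the order differs, at 2.80 for SOD2, 2.49 for GPX7 and 1.86 for GLRX. CYBA was at background on all resistant arrays, so its point does not give the size of its fall.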

How the data were processed

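Total RNA of 3 resistant and 3 parental samples was measured on Illumina arrays, and the groups and replicate numbers are those of the sample titles. The labels call the samples biological replicates but name no separate cultures, so the spread behind each p-value may be technical. The authors deposited 47230 normalized log2 signals per array. Their software, background treatment and normalization are not stated in the labels, and base 2 was read from the range of values, 6.51 to 13.76. Sorted values differed between arrays by at most 0.00434, as after quantile normalization, so differences are relative to the whole array. Another 12 columns of unnormalized values were left out, since their names match no sample.

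The platform annotation gave 1 symbol for 30112 probes, several for 8 and none for 17110. The background limit was each array's mode plus 3 SD of the values below it, which 40.8% to 41.1% of probes passed, and a gene was tested when above it on at least 3 of 6 arrays, through its brightest such probe. Groups were compared with limma 3.58.1 under R 4.3.3 (4 residual and 8.88 prior degrees of freedom, no replicate block), with Benjamini-Hochberg adjustment over all 11426 genes at 0.05, and the fit was tested on simulated data. The number of arrays limits the precision. At-least folds set the brighter group's mean against the background limit, or the dim signal where higher, in the other group.

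The members and lists were chosen with earlier results of these data known. Named genes are all members with every probe, SOD3, PRDX2, PRDX4, PRDX6, GPX7, GPX8, CCS, NFE2L2 and KEAP1. Also named are the up to 4 tested genes with the smallest p in a list, and genes of most similar pattern. NQO1, REL, ME1, GCLM, GCLC, SRXN1, GSR and TXN were added after their values were seen.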

Additional observations from a re-analysis of the deposited data

How the results depend on the processing

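The counts of members higher and lower (5 and 1) were recomputed under 14 alternatives: no filter, a filter on all 6 arrays, the mean of a gene's probes, an eBayes trend, the replicate block, array weights, cyclic loess, subtraction of the background mode, and leaving out each array. The count of members higher was 4 with the background mode subtracted and 4 to 5 without 1 array, and 5 otherwise; the count lower was 1 throughout. GPX4 was the member that left the count. The differences of the members that passed kept their sign under all 14. PRDX1 turned to -0.01 with the mean of probes. Without 1 array PRDX1 ran from -0.01 to 0.08 (negative without resistant replicate 3), PRDX3 from -0.03 to 0.09 (negative without parental replicate 2) and KEAP1 from -0.02 to 0.16 (-0.01 and -0.02 without resistant replicates 1 and 2). None of these negative values passed, and the cause was not tested. Over all genes the counts ran from 2585 to 3104 higher and from 2745 to 3117 lower, against 2967 and 3061. The labels do not say whether the replicate numbers pair the samples. Deviations from the group mean correlated at r = 0.144, 0.001 and 0.086 between same-numbered arrays. Between arrays of unlike number they correlated at r = -0.196 to 0.127, and these values cannot settle whether samples were paired. With the replicate block the counts were 5 members higher and 1 lower, and 3024 and 3112 genes, and it changed no call of a member. Probes near the background limit, such as the third SOD2 probe, limit how large a fold can be read.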
